A study of Mus musculus with 5 samples.

Results

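The fragments described here are stretches of mouse DNA between cut sites of the enzyme MspI that held 5 to 9 CpGs and were almost free of methylation in a non-clonal population of CD8+ T cells, the cytotoxic lymphocytes. A fragment entered if at least 10 molecules with a methylation call covered it in each of 2 cell clones, if at least 5 did so on the odd and 5 on the even lines of the population's table, and if its level on the odd lines was under 20%. The level is the share of methylated calls among all calls of a fragment. The rule held for 11976 fragments, of 60849 with 5 to 9 CpGs and of 160499 fragments of any CpG number with that coverage. The fragments were thus chosen by the levels on the odd lines, so the population was measured on the even lines, and every population value below comes from these unless stated otherwise.

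The libraries came from C57BL/6 mice. Naive T cells from the spleen were kept in culture with IL2 at 1.2 ng/ml and stimulated for 2 days, and single CD8+ cells were then sorted. The same IL2 dose and 2 days of stimulation are listed for the population. Clone 1 and clone 2 were each grown from 1 founder cell, with 15 cell divisions on the labels, and had 2 labelled replicates each. The population was 1 sample of cells that had not been cloned, labelled as primary and without a number of divisions. The replicates of a clone share 1 deposited table and could not be told apart, so each group is 1 library, no value has a spread between replicates, and every test compares 3 libraries and not conditions. Neither the age of the mice nor whether 1 animal gave all the cells is stated in the labels. CD8 identity was not checked against marker loci here, since the tables number fragments without coordinates or genes, and for the same reason no chromosome, gene or sequence is printed.

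In mammals most CpGs are methylated, and the unmethylated exceptions gather in CpG islands, which often overlap gene promoters, and in some distal regulatory elements. The maintenance methyltransferase Dnmt1 copies methylation to the new strand after replication, and the de novo enzymes Dnmt3a and Dnmt3b can add it where it was absent. A clone carries the methylation of the chromosome copies of 1 founder cell, with whatever was gained or lost since, whereas a population averages over many cells. MspI cuts CCGG with or without methylation of its inner CpG, and bisulfite turns unmethylated cytosines into uracils, so every sequenced molecule shows 1 pattern of methylated and unmethylated CpGs.

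With a call, 7013054 molecules were listed for clone 1, 5567534 for clone 2 and 5588357 for the population on all its lines. On the unmethylated fragments these came to 306306 molecules in clone 1, 279309 in clone 2 and 129375 on the even population lines, with 5.29, 5.30 and 5.26 calls per molecule in the same order. The median fragment had 25 molecules in clone 1, 22 in clone 2 and 10.5 in the population. Of these molecules 26.0% rested on 2 or more reads in clone 1, 44.1% in clone 2 and 44.5% in the population. Plus and minus strands gave 6.75% and 6.71% methylated calls in clone 1, 7.28% and 7.23% in clone 2, and 4.61% and 4.69% in the population.

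Patterns of some fragments picked for wide differences between the libraries are shown first, as examples and not as typical fragments. Most fragments were low in every library, as given further below. Below, a filled circle is a methylated and an open circle an unmethylated CpG, for all CpGs of the fragment but its first and last, which lie in the cut sites and are each missed by molecules of 1 strand. Only molecules with a call at all of these CpGs are counted. In the first fragment the main patterns of the clones differed at a single CpG. In the second, molecules of clone 1 carried 2 to 4 methylated CpGs in the main patterns and those of clone 2 none. In the third, clone 1 had 2 main patterns that share 1 methylated CpG. The first and the third are among those with the widest difference at 1 CpG, and the second among those with the widest difference between whole molecules.
Fragment 929839, clone 1: ●○○○ on 19 of 22 molecules
Fragment 929839, clone 2: ○○○○ on 8 and ●○○○ on 3 of 12 molecules
Fragment 929839, population: ○○○○ on 11 of 13 molecules
Fragment 1147768, clone 1: ●●●● on 21 and ●○○● on 12 of 40 molecules
Fragment 1147768, clone 2: ○○○○ on 19 of 20 molecules
Fragment 1147768, population: ○○○○ on 6 of 7 molecules
Fragment 686742, clone 1: ○○●●○ on 15 and ○●●○○ on 10 of 29 molecules
Fragment 686742, clone 2: ○○○○○ on 9 and ○●○○○ on 7 of 19 molecules
Fragment 686742, population: ○○○○○ on 4 and ○○●○○ on 3 of 8 molecules

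Across all 11976 fragments the mean level of either clone exceeded that of the population, while the typical fragment stayed near 2% in all 3 libraries. Clone 1 averaged 6.93% ± 11.4 (SD between fragments), clone 2 7.62% ± 12.1 and the population 4.95% ± 7.06. The mean in clone 1 lay 1.98 percentage points above the population and that in clone 2 lay 2.67 points above it. Over all 160499 covered fragments these distances were 0.958 and 1.70 points. In fragments with 5 to 9 CpGs over 80% on the odd lines they were 0.0597 and 0.649 points. The fragments were chosen as low in the same population library, though on other lines, so the direction is no result. Medians were 1.82% in clone 1, 2.06% in clone 2 and 2.22% in the population. With 1 library per group the difference between the means could not be tested against the variation between cultures. On the odd lines, whose values chose the fragments, the population had a mean of 4.25% and a median of 2.13%, given here as a description.

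The higher means came with a longer upper tail, which the choice of fragments as low in the population library favours. The upper decile began at 21.4% in clone 1, 23.2% in clone 2 and 14.3% in the population. In clone 1, 1323 fragments (11%) reached 20% or more, in clone 2 1493 (12.5%) and in the population 573 (4.78%). Levels over 50% were found at 156 fragments in clone 1, 188 in clone 2 and 13 in the population, and levels over 80% at 8, 11 and 0. Depth differed between the libraries, so all were also thinned to 10 molecules at the 7299 fragments that allowed it. There, 11.3% of fragments in clone 1, 12.5% in clone 2 and 4.21% in the population were at 20% or more. Fragments without any methylated call were slightly more frequent in the clones, with 38.9% in clone 1 and 37.3% in clone 2 against 35.3% in the population.

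**Figure D1:**
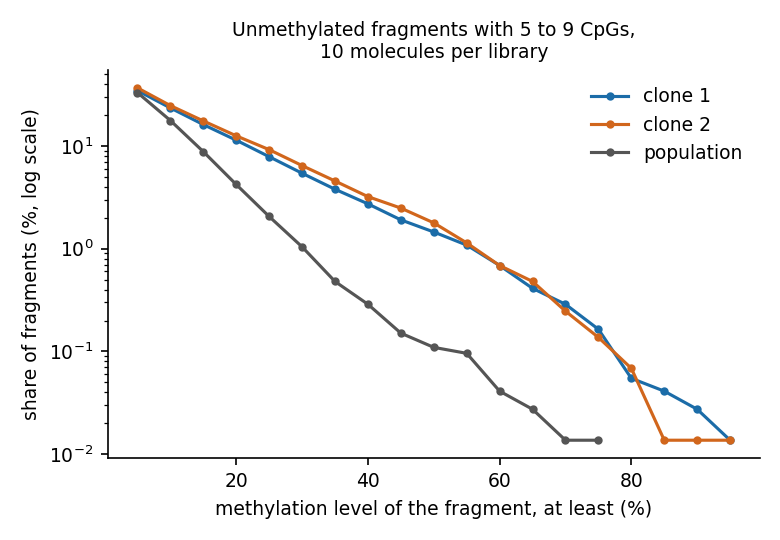
Share of fragments (log scale, percent of 7299) whose methylation level reached at least the value on the horizontal axis, with each library thinned to 10 molecules per fragment. At a level of 5% the curves stand at 34.5% of fragments in clone 1, 36.6% in clone 2 and 33.0% in the population, and both clones run above the population there and at the higher levels drawn for it.

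Most fragments were low in every library. In all 3 libraries 9771 fragments (81.6%) stayed under 20%, 6115 (51.1%) under 5%, and 751 (6.27%) had no methylated call at all. Levels of 20% or more coincided in part between the clones. Of the fragments at 20% or more in clone 1, 56.2% were so in clone 2, against 7.04% of those under 20% in clone 1. Of those at 20% or more in clone 2, 49.8% were so in clone 1, against 5.53% of the others. At 255 fragments all 3 libraries were at 20% or more. The clones share the population that chose these fragments, and fragments differ in level within the chosen range, so this coincidence is a description only.

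Fragments with fewer CpGs were less often unmethylated, and those that were had higher levels. Unmethylated fragments made up 11% of covered fragments with 5 CpGs (2136), 15.7% of those with 6 (2346), 22.1% with 7 (2433), 29.3% with 8 (2556) and 37.1% with 9 (2505). At 5 CpGs the mean level was 8.94% in clone 1, 9.52% in clone 2 and 6.28% in the population. At 9 CpGs it was 5.25% in clone 1, 5.91% in clone 2 and 3.92% in the population. Between these ends the means fell with each added CpG in all 3 libraries. Along with the levels, the excess over the population in points shrank in the same order. In clone 1 it fell to 1.32 points at 9 CpGs, against 2.66 points at 5 CpGs, and in clone 2 to 1.99 points, against 3.24 points. Unmethylated fragments outside this range of CpG numbers continued the series. Those with 2 to 4 CpGs (3583 fragments) averaged 11.97% in clone 1, 12.9% in clone 2 and 8.33% in the population, and those with 10 to 19 CpGs (17146 fragments) 3.65%, 3.82% and 2.78%.

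In the classes below, levels in all 3 libraries were higher where the odd population lines were higher. The gap in points between the clones and the population widened along with the levels. The odd lines chose the fragments, so this is a description only. The 4370 fragments without a methylated call on the odd lines had means of 2.11% in clone 1, 2.41% in clone 2 and 1.47% on the even population lines. The 1891 fragments at 5 to under 10% on the odd lines had 10.5%, 11.8% and 7.60%, and the 788 at 15 to under 20% had 24.0%, 24.9% and 17.7%. Ordered by pattern instead of level, 878 fragments had at least 1 odd-line molecule with more than 50% of its observed CpGs methylated. These averaged 19.98% in clone 1, 21.0% in clone 2 and 14.1% in the population. The 6728 fragments whose odd-line methylation lay on molecules with 50% or less averaged 8.36%, 9.26% and 6.02%. The rule's threshold falls within a continuous range of levels. Just inside it, fragments 588242, 652276 and 1448135 all stood at 19.8% on the odd lines. They measured 32.1%, 40.3% and 16.0% in clone 1, 14.3%, 24.7% and 12.9% in clone 2, and 24.7%, 20% and 12.5% on the even population lines. Just outside it, fragments 885, 8130 and 61228 stood at 20% on the odd lines and measured 0%, 3% and 0% in clone 1, 31.7%, 41.7% and 57.1% in clone 2, and 14.8%, 24% and 11.5% on the even lines.

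Both isolated methylated CpGs and molecules methylated along most of their length were found. Molecules with no methylated CpG made up 77.5% in clone 1, 76.2% in clone 2 and 82.5% in the population. Molecules with 1 methylated CpG and no majority made up 14.3%, 14.9% and 12.7% in the same order. Those with several methylated CpGs but no majority made up 5.42% in clone 1, 5.90% in clone 2 and 3.55% in the population. Molecules methylated at over 50% of the CpGs observed on them, called methylated molecules from here on, were rarest and differed most in proportion, with 2.78% in clone 1, 3.04% in clone 2 and 1.29% in the population. They carried 26.3% of all methylated calls in clone 1, 27% in clone 2 and 16.7% in the population. The remaining molecules also had more methylated calls in the clones, with 5.08% in clone 1, 5.44% in clone 2 and 3.92% in the population. The choice of fragments as low in the population library favours higher values in the clones here as well, so these are descriptions.

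Pooled over fragments, a CpG was more often methylated where another CpG of the same molecule was. A CpG next to a methylated one was itself methylated in 31.6% of cases in clone 1, 31.9% in clone 2 and 23.6% in the population. Next to an unmethylated CpG the shares were 4.74%, 5.16% and 3.53%. At a distance of 4 CpGs the shares beside a methylated CpG were 23.2% in clone 1, 24.3% in clone 2 and 15.6% in the population. These shares pool fragments of different level, which raises them in every library. They therefore cannot show whether methylated CpGs gathered on single molecules within a fragment. At 2678 fragments with 10 or more molecules that covered all inner CpGs, 10 molecules carried on average 1.99 patterns in clone 1, 2.08 in clone 2 and 2.17 in the population. The chance that a pair of molecules differed in pattern was 0.229 ± 0.250 in clone 1, 0.247 ± 0.262 in clone 2 and 0.239 ± 0.256 in the population (mean ± SD between fragments). Its medians were 0.127 in clone 1, 0.143 in clone 2 and 0.182 in the population, so means and medians ordered the libraries differently, and neither was tested.

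Pooled over CpG numbers, levels were higher toward the fragment ends. The CpG in the cut site, read from its own end, had 8.08% methylated calls in clone 1, 8.03% in clone 2 and 5.71% in the population. The CpG next to it had 7.17%, 7.76% and 4.90%, and CpGs further inside had 5.99%, 6.63% and 4.12%. Fragments of different CpG number differ in level and in their share of cut-site calls, and the order of the outer CpGs did not hold throughout. In clone 2, plus-strand molecules of fragments with 7 CpGs had 7.82% at the first CpG and 8.39% at the second, and minus-strand molecules of those with 9 CpGs had 6.14% at the last and 6.73% at the one before it. Calls at the cut site of the far end of a molecule were methylated at 8.51% in clone 1, 18.8% in clone 2 and 7.85% in the population. They made up at most 0.247% of calls, and how they arose was not tested.

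Neighbouring fragments were mostly unmethylated as well. Fragments with adjacent numbers behaved as neighbours that share a cut site: the shared CpG, read once from either fragment, correlated across 38556 sites with r = 0.963 in clone 1, across 29889 with r = 0.956 in clone 2 and across 33019 with r = 0.956 on all lines of the population, over all fragments with 5 molecules on either side of the site. One number further the values were 0.755, 0.776 and 0.790. Sites are not independent replicates, so these are descriptions. Of the 23952 numbers adjacent to an unmethylated fragment 5655 were covered, and 5098 of these (90.2%) were under 20% on the odd lines, 539 (9.53%) at 20 to 80% and 18 (0.318%) above. Among methylated fragments with 5 to 9 CpGs, those over 80% on the odd lines (39486), 0.132% of covered neighbours were under 20% and 90.0% over 80%. For unmethylated fragments with 10 to 19 CpGs 95.5% of covered neighbours were under 20%, and for those with 2 to 4 CpGs 83.0%. Over all covered fragments the share was 32.9%.

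Levels within a fragment went with the state of its neighbour. Both contain the CpG of the cut site they share, so part of this is built in. The 521 fragments beside one at 20 to 80% averaged 18.9% ± 16.8 in clone 1, 19.8% ± 17.7 in clone 2 and 12.8% ± 9.88 in the population, and the 4562 beside an unmethylated one 5.89% ± 9.61, 6.43% ± 10.3 and 4.23% ± 5.93 (SD between fragments). Beside a neighbour at 20 to 80% the CpG nearest to it stood at 26.9% in clone 1, 26.8% in clone 2 and 19% in the population. The fifth CpG from that side stood at 18.2%, 20.3% and 10.5%. In fragments with 5 CpGs the fifth is the other cut site, so these values mix positions and CpG numbers. The shared cut site, read from the neighbour, was at 28.6% in clone 1, 29.1% in clone 2 and 21.6% in the population. Beside an unmethylated neighbour the nearest CpG stood at 5.54%, 5.47% and 3.66% and the fifth at 5.82%, 6.35% and 4.15%.

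**Figure D2:**
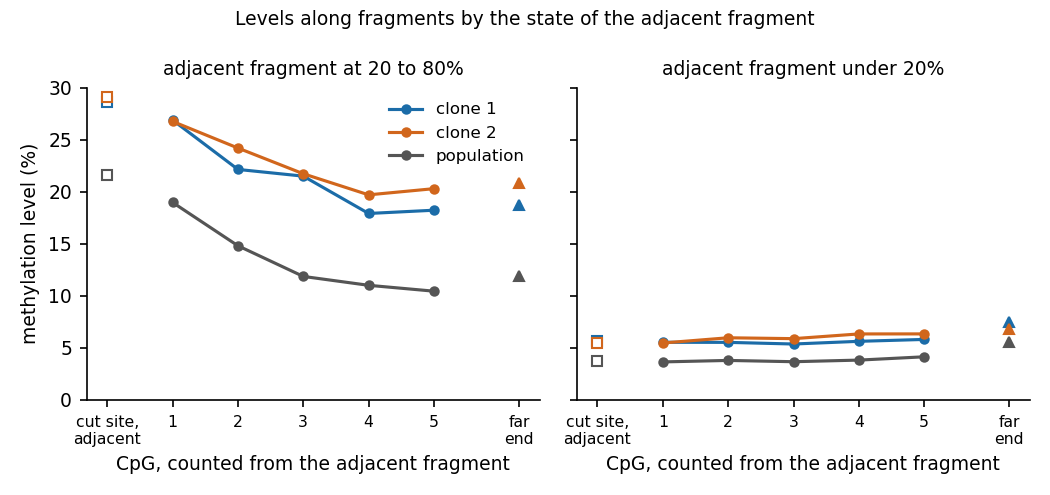
Methylation level (percent of calls) at the first 5 CpGs counted from the side of the adjacent fragment (circles), at the shared cut site read from the adjacent fragment (open squares) and at the cut site of the other end (triangles), for fragments beside one at 20 to 80% (left) and under 20% (right). On the left the fifth CpG lies below the first in all 3 libraries, in clone 1 at 18.2% with 26.9% at the first, and on the right it stays between 3.66% and 6.35% over the first 5 CpGs.

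Whole fragments were compared by Fisher's exact test on methylated and other molecules, two-sided, with Benjamini-Hochberg adjustment over all 160499 covered fragments. Fragments were called where the adjusted p lay under 0.05 and the shares differed by 20 points or more. Against the population, 29 unmethylated fragments were higher in clone 1 and 1 was lower, of 11976. Of all covered fragments 0.588% were called, 0.33% higher and 0.257% lower, and of the unmethylated ones 0.242% were higher, so their share of higher calls did not exceed the background. In clone 2, 26 fragments were higher and 0 lower, or 0.217% higher with a background of 0.417% in either direction, 0.279% higher and 0.138% lower. At an unadjusted p under 0.05 there were 220 fragments in clone 1 and 251 in clone 2 in either direction, beside 9258 and 8659 of all 160499. With Benjamini-Yekutieli adjustment 8 fragments were called in clone 1 and 4 in clone 2, with methylated molecules defined by 80% or more 10 and 4, with the limit at 10% on the odd lines 9 and 6, and on the plus strand alone 1 and 2. The choice of fragments leaves little room for lower levels, so the direction is no result. These tests had a median of 13 and 12.5 population molecules at called fragments in clone 1 and clone 2, which limits them to wide differences.

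Fragments called against the population had mostly methylated molecules in the clone, which the limit to wide differences and the choice of fragments favour. At the 29 higher ones the median share of methylated molecules was 72.5% in clone 1 (range 49 to 100%) and 0% in the population, and at the 26 of clone 2 it was 74.0% (50 to 100%) and 0%. Fragment 984173, with 5 CpGs, was methylated on 35 out of 35 molecules in clone 1 and 16 out of 17 in clone 2, against 0 out of 8 in the population (adjusted p 4.43e-05 for clone 1 and 0.00722 for clone 2, Fisher's exact test). Fragment 984171, with 9 CpGs and 2 numbers away, had 13 out of 16 in clone 1 and 11 out of 19 in clone 2, against 0 out of 9 in the population (adjusted p 0.0267 for clone 1, Fisher's exact test). The population's odd lines placed both near the limit, at 18.8% and 19.4%. Fragment 462183 (7 CpGs) showed 23 out of 29 methylated molecules in clone 1 and 18 out of 20 in clone 2, against 0 out of 14 in the population (adjusted p 0.000788 for clone 1 and 0.000384 for clone 2, Fisher's exact test). Its level on the odd population lines was 12%.

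Fragments called higher in both clones come from comparisons that share the population library, so each is given only by its own values. Fragment 887102 (8 CpGs) showed 27 out of 33 methylated molecules in clone 1 and 19 out of 24 in clone 2, against 1 out of 12 in the population. Fragment 714043 (5 CpGs) showed 30 out of 47 in clone 1 and 28 out of 42 in clone 2, against 0 out of 15 in the population. Fragment 335626, with 9 CpGs, was another of them. Its methylated molecules numbered 23 out of 34 in clone 1 and 31 out of 42 in clone 2, against 0 out of 11 in the population. Both clones held fully methylated and fully unmethylated patterns, and the even population lines had the unmethylated one alone. The odd population lines held some methylation at all of these, with levels of 8% at fragment 887102, 12.5% at 714043 and 10.6% at 335626.
Fragment 335626, clone 1: ●●●●●●● on 9, ○○○○○○○ on 8 and ●●●○●●● on 5 of 23 molecules
Fragment 335626, clone 2: ●●●●●●● on 19 and ○○○○○○○ on 7 of 34 molecules
Fragment 335626, population: ○○○○○○○ on 10 of 10 molecules

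The 1 fragment lower in clone 1 than in the population was one whose odd and even lines disagreed. Fragment 291195 (8 CpGs) showed 0 out of 42 methylated molecules in clone 1 and 24 out of 34 in clone 2, against 15 out of 19 on the even population lines (adjusted p 1.26e-06 for clone 1, Fisher's exact test). Its level on the odd lines was 19.2% and on the even lines 73.2%. Among the fragments picked for a high level in all libraries, fragment 1318588, with 9 CpGs, stood at 78.2% in clone 1, 80.6% in clone 2 and 54.5% on the even population lines, against 19% on the odd ones.

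The clones were compared with each other directly, without the population. Of the 11976 fragments, 80 had a higher share of methylated molecules in clone 1 than in clone 2 and 114 a lower one, together 1.62%. Of all covered fragments 4.2% were called in this comparison, 1.91% higher and 2.29% lower in clone 1. Fragments with 5 and 6 CpGs were called at 2.29% and 2.60%, and those with 9 CpGs at 0.958%. Unmethylated fragments with 2 to 4 CpGs were called at 3.57% and those with 10 to 19 CpGs at 0.484%. Calls rested on medians of 30 molecules in clone 1 and 26 in clone 2. With molecules of 2 or more reads only, 1292 fragments kept the coverage and 1 was called between the clones, and 1 in each comparison with the population. Between the clones 83 were called with Benjamini-Yekutieli adjustment, 75 with the 80% definition, 62 with the limit at 10%, and 41 and 33 on the plus and the minus strand alone.

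Most of these calls set a partly methylated clone against one without methylated molecules. In the clone with more methylation the median share of methylated molecules was 50.6% at the 80 fragments higher in clone 1, and 52.3% at the 114 lower in it. At the 80, 33 lay at 40 to 60% in clone 1 and 5 at 80% or more, while clone 2 had no methylated molecule at 50 of them. At the 114, 50 lay at 40 to 60% in clone 2 and 10 at 80% or more, while clone 1 had no methylated molecule at 70 of them. The population had no methylated molecule on its even lines at 42 of the 80 and 52 of the 114.

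**Figure D3:**
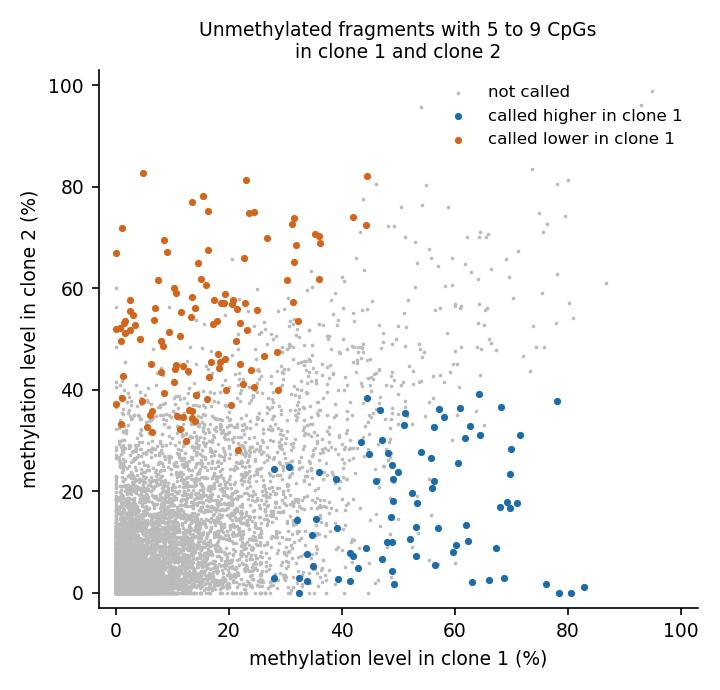
Methylation level (percent of calls) of each of the 11976 fragments in clone 1 (horizontal) and clone 2 (vertical), with the 80 fragments called higher and the 114 called lower in clone 1 in colour and all others in grey. Called fragments lie away from the diagonal on both sides, and most others lie below 20% on both axes.

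The widest of these differences came close to complete. Fragment 1147768, with 6 CpGs, was methylated on 45 out of 48 molecules in clone 1 (93.8%, Wilson 95% interval 83.2 to 97.9), against 0 out of 22 in clone 2 (0 to 14.9) and 0 out of 9 in the population (adjusted p 5.73e-12 between the clones, Fisher's exact test). Fragment 1470054, also with 6 CpGs, had 24 out of 28 in clone 1 and 0 out of 13 in clone 2, with 3 out of 14 in the population. Fragment 387012 (5 CpGs) showed 26 out of 32 in clone 1 and 1 out of 30 in clone 2, with 2 out of 10 in the population. Fragments 1419961 and 759772 had 18 out of 22 and 24 out of 32 in clone 1, and 0 out of 11 and 0 out of 15 in clone 2, with 2 out of 7 and 4 out of 11 in the population.

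In the opposite direction, fragment 1503267, with 6 CpGs, had 0 out of 32 methylated molecules in clone 1 and 19 out of 21 in clone 2, with 1 out of 8 in the population (adjusted p 1.55e-09 between the clones, Fisher's exact test). Fragment 504718 (8 CpGs) showed 0 out of 13 in clone 1 and 23 out of 29 in clone 2, with 0 out of 6 in the population. In clone 2 the methylated patterns of fragment 504718 all left the second inner CpG unmethylated. Fragments 987599, 1321933 and 902458 had 0 out of 10, 1 out of 17 and 2 out of 28 in clone 1, and 9 out of 10, 18 out of 22 and 14 out of 17 in clone 2, with 1 out of 6, 1 out of 12 and 1 out of 12 in the population.
Fragment 504718, clone 1: ○○○○○○ on 11 of 11 molecules
Fragment 504718, clone 2: ●○●●●● on 17, ○○○○○○ on 5 and ●○○●●● on 2 of 24 molecules
Fragment 504718, population: ○○○○○○ on 4 and ○○○●○○ on 2 of 6 molecules

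**Figure D4:**
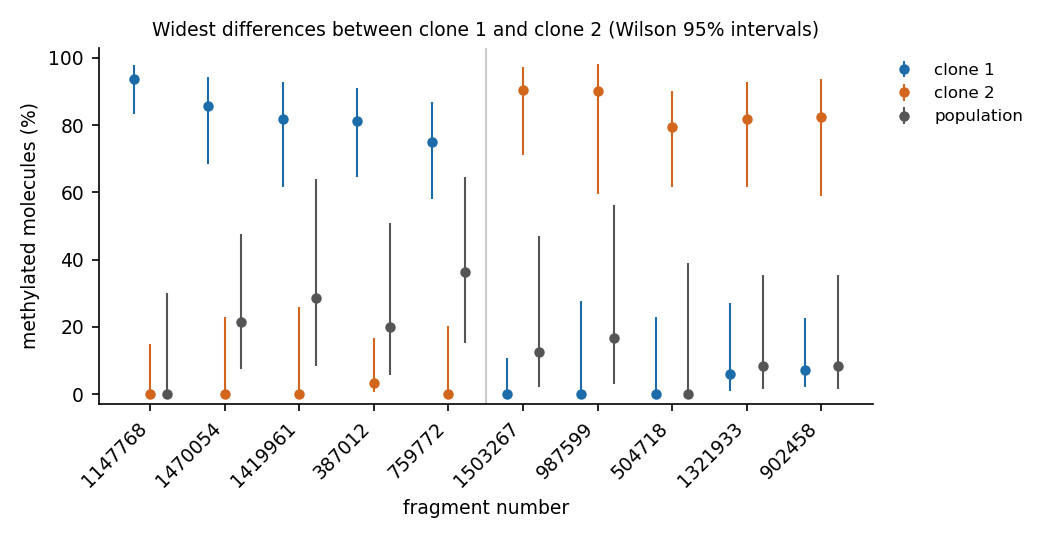
Share of methylated molecules (percent, with Wilson 95% intervals for counting error) in clone 1, clone 2 and the population at the 5 fragments with the widest higher share in clone 1 (left of the line) and the 5 with the widest lower share in clone 1 (right). The clone with more methylation lies at 75% or above throughout, the other clone at 7.14% or below, and the population at 36.4% or below.

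The 5 deepest fragments had from 1.69 to 49.3% methylated molecules in the clones. Fragment 1016740 (6 CpGs) showed 26 out of 145 in clone 1 (17.9%, Wilson 95% interval 12.5 to 25), 21 out of 143 in clone 2 (14.7%, 9.81 to 21.4) and 6 out of 61 in the population (9.84%, 4.59 to 19.8), with overlapping intervals. Its second most frequent pattern was ●●●●, on 11 out of 69 molecules in clone 1, 9 out of 81 in clone 2 and 2 out of 32 in the population. Fragment 1389164 (9 CpGs) showed 13 out of 62 in clone 1 and 36 out of 73 in clone 2, with 2 out of 22 in the population, and was called between the clones (adjusted p 0.0211, Fisher's exact test). Fragments 862640 and 1386317, with 31 out of 102 and 19 out of 70 in clone 1, and 32 out of 114 and 8 out of 45 in clone 2, were not called between them, and neither was fragment 535354, with 1 out of 59 and 5 out of 53.

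Single CpGs were called between the clones at far more fragments than whole molecules were. The definitions favour this, since a change at 1 CpG of an otherwise unmethylated fragment does not make its molecules methylated ones. The same test was applied to 655804 CpGs with at least 10 molecules in each clone and 5 on the even population lines, of which 58487 lay in 11316 of the unmethylated fragments. Between the clones 1500 of these CpGs were higher and 1914 lower in clone 1, or 5.84%, with a background of 5.79% over all CpGs tested (2.74% higher and 3.05% lower). The called CpGs lay in 2222 fragments, 19.6% of those with a tested CpG, close to the 17.6% of fragments over the whole series. Of the 2222, 2052 were not called as whole fragments. Over all covered fragments 25340 held a called CpG and 6736 were called as a whole, so this contrast is not particular to the unmethylated ones. A single called CpG was found in 1422 fragments (64.0% of the 2222), 2 in 523, 3 in 203 and 4 or more in the others. With molecules of 2 or more reads only, 131 of 5081 CpGs were called between the clones. In 292 fragments CpGs were called in both directions, and of 681 pairs of adjacent called CpGs 516 went the same way and 165 opposite ways.

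At CpGs called between the clones, the clone with more methylation was often near 50%. Of the 1500 CpGs higher in clone 1, 51.8% lay at 40 to 60% in clone 1 and 12.8% at 90% or more, with a median of 57.1%, against a median of 0% in clone 2 and 10.8% in the population. Of the 1914 lower in clone 1, clone 2 had 51.5% at 40 to 60% and 12.1% at 90% or more, with a median of 56.5%, against a median of 0% in clone 1 and 10% in the population. The population was under 20% at 69.3% and 71.9% of these CpGs. Each strand was also tested alone. CpGs called on plus-strand molecules alone numbered 775, and there the minus strand differed the same way at 772 (99.6%), by a mean of 56.3 points. Called on the minus strand alone, 741 out of 747 differed the same way on the plus strand, by a mean of 57.5 points.

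Called CpGs were spread along the fragments and were more frequent in fragments with higher levels on the odd population lines, which chose the fragments. CpGs next to a cut site were called between the clones at 6.38%, cut sites at 5.51% and other inner CpGs at 5.55%. Of fragments without a methylated call on the odd population lines 4.07% held a called CpG, of those at 5 to under 10% 37.6%, and of those at 15 to under 20% 54.5%. The share of fragments with a called CpG hardly varied with CpG number, from 19.2% at 9 CpGs to 20.5% at 6. Among CpGs themselves 8.07% were called at 5 CpGs and 4.89% at 9. For CpGs of unmethylated fragments with 2 to 4 CpGs the share was 8.51%, for those with 10 to 19 CpGs 2.84%, and for methylated fragments with 5 to 9 CpGs 4.35%.

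With every library thinned to 10 molecules per CpG, single CpGs in the clones stood more often at the ends and in the middle of the scale, and less often just above 0. This used 26973 CpGs in 6582 fragments. No methylated molecule was found at 77.1% of CpGs in clone 1, 75.3% in clone 2 and 73.7% in the population. From 1 to 3 out of 10 were less frequent in the clones, with 11.6% and 4.75% of CpGs at 1 and at 2 to 3 in clone 1, 12% and 5.44% in clone 2, and 16.7% and 7.80% in the population. From 4 to 6 were more frequent, with 4.59% in clone 1, 4.90% in clone 2 and 1.70% in the population. Of 10 molecules 9 or 10 were methylated at 190 CpGs in clone 1, 236 in clone 2 and 7 in the population. The fragments were chosen as low in the same population library, which disfavours CpGs high in it but not those high in a clone. The smaller shares of such CpGs in the population are thus partly set by the choice, and all these shares are a description only.

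**Figure D5:**
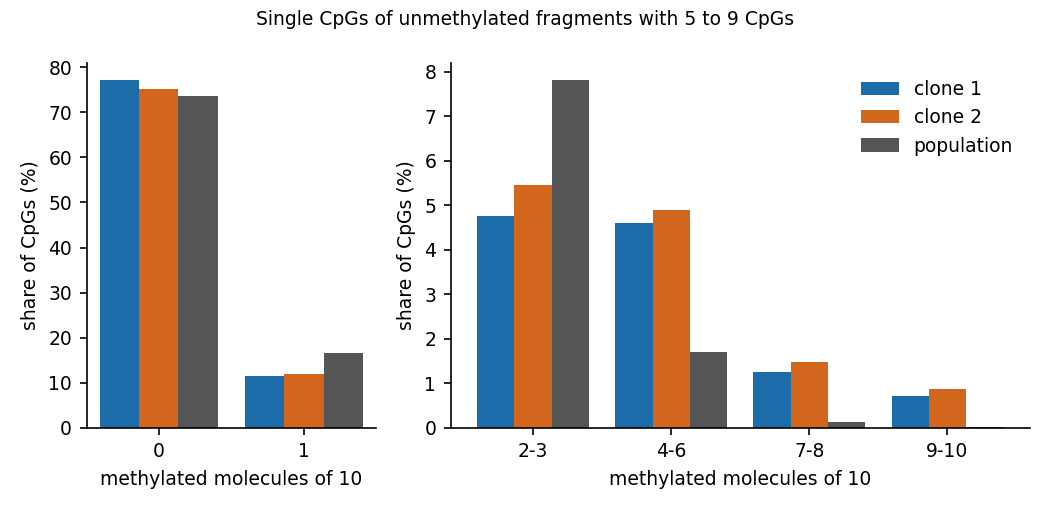
Share of CpGs (percent of 26973) by the number of methylated molecules among 10, for clone 1, clone 2 and the population, with separate vertical scales for 0 to 1 (left) and 2 to 10 (right). The clones lie above the population at 0 and from 4 to 10 methylated molecules, and below it from 1 to 3. The fragments were chosen as low in the population library, so these shares are a description only.

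The CpGs with the widest differences between the clones were complete in one and absent in the other. In fragment 1177102, with 7 CpGs, the second CpG was methylated on 0 out of 36 molecules in clone 1 and 33 out of 33 in clone 2, with 3 out of 16 in the population (adjusted p 1.35e-16 between the clones, Fisher's exact test). In clone 2, 21 out of 29 molecules had the pattern ●○○○○. The fourth CpG of fragment 1371963, with 5 CpGs, was methylated on 0 out of 30 molecules in clone 1 and 34 out of 34 in clone 2, with 1 out of 14 in the population. The fifth of fragment 481543, with 6 CpGs, was methylated on 0 out of 32 in clone 1 and 25 out of 25 in clone 2, with 2 out of 5 in the population. Higher in clone 1 were the fourth CpG of fragment 686742, with 32 out of 32 in clone 1 and 0 out of 21 in clone 2, and the second of fragment 514880, with 32 out of 32 and 0 out of 19. The population had 3 out of 8 and 0 out of 10 at these. The third CpG of fragment 218956 had 22 out of 22 in clone 1 and 0 out of 20 in clone 2, with 0 out of 12 in the population.
Fragment 1177102, clone 1: ○○○○○ on 30 and ○○●○○ on 2 of 32 molecules
Fragment 1177102, clone 2: ●○○○○ on 21, ●○●○○ on 2 and ●●○○○ on 2 of 29 molecules
Fragment 1177102, population: ○○○○○ on 6 and ●○○○○ on 2 of 11 molecules
Fragment 1371963, clone 1: ○○○ on 27 of 27 molecules
Fragment 1371963, clone 2: ○○● on 22 of 27 molecules
Fragment 1371963, population: ○○○ on 12 of 14 molecules
Fragment 514880, clone 1: ●○○○●●○ on 6 and ●●○●○○○ on 3 of 13 molecules
Fragment 514880, clone 2: ○○○○○○○ on 11 of 11 molecules

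Against the population, 311 CpGs of the unmethylated fragments were higher and 26 lower in clone 1, of 58487, or 0.576%, with 0.65% of all CpGs tested called, 0.38% higher and 0.27% lower. In clone 2, 337 were higher and 9 lower, or 0.592%, with 0.529% over all CpGs, 0.348% higher and 0.181% lower. At an unadjusted p under 0.05 there were 2770 and 2867 of these 58487 CpGs in either direction. They were not set against the count over all CpGs tested and are no result about the fragments. With molecules of 2 or more reads only, 2 were called in clone 1 and 7 in clone 2. The called CpGs lay in 266 fragments of clone 1, of which 240 were not called as a whole, and in 294 of clone 2, of which 272 were not. These are 2.35% of the fragments with a tested CpG in clone 1, with 2.44% over the whole series, and 2.60% in clone 2, with 2.02% over the whole series. The second CpG of fragment 929839, with 6 CpGs, was methylated on 26 out of 26 molecules in clone 1 and 4 out of 16 in clone 2, against 0 out of 17 in the population (adjusted p 2.4e-07 for clone 1, Fisher's exact test). The third of fragment 1121841, with 6 CpGs, was methylated on 1 out of 25 molecules in clone 1 and 16 out of 16 in clone 2, against 0 out of 18 in the population (adjusted p 9.3e-06 for clone 2, Fisher's exact test). The fourth of fragment 391134, with 8 CpGs, had 0 out of 20 in clone 1 and 18 out of 18 in clone 2, against 0 out of 12 in the population.

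At a few CpGs the population was high and a clone low. The second CpG of fragment 568401, with 7 CpGs, was methylated on 0 out of 21 molecules in clone 1 and 23 out of 23 in clone 2, against 9 out of 11 in the population (adjusted p 0.00171 for clone 1, Fisher's exact test). In fragment 1106155, with 8 CpGs, the third CpG was methylated on 22 out of 22 molecules in clone 1 and 3 out of 26 in clone 2, against 10 out of 12 in the population (adjusted p 0.0134 for clone 2, Fisher's exact test). Its patterns show this CpG as the second inner one.
Fragment 1106155, clone 1: ○●○●○○ on 11 and ●●○○○○ on 6 of 18 molecules
Fragment 1106155, clone 2: ○○○○○○ on 13 and ●○○○○○ on 6 of 21 molecules
Fragment 1106155, population: ●●○○○○ on 4 and ○●○○○○ on 3 of 10 molecules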

How the data were processed

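Molecules were read from 3 deposited tables without headers, 1 for each clone and 1 for the population. Per the labels' protocols, DNA was cut with MspI, selected for length, joined to tagged plasmids, treated with bisulfite and amplified. Bismark and the build mm9 are named, without a version, per the submitters' processing notes. How the authors combined the 2 replicates of a clone is not stated in the labels. Each line holds a fragment number, a strand, a tag, a string of calls with 1 character per CpG, and the deposited count of reads, which is not normalized. A sixth column of unstated meaning was not used. Each line with a call counted as 1 molecule. No fragment, strand and tag occurred on more than 1 line, but the tables use only 77 tags, so separate molecules can be merged on deep fragments. No molecule was removed for its number of reads.

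Levels, patterns and tests were computed with Python 3.11.15, numpy 2.4.6, scipy 1.17.1 and pandas 2.3.3. The tests ran with numba 0.67.0 and figures were drawn with matplotlib 3.10.9. Fisher's exact tests, two-sided, covered all fragments or CpGs with the coverage minimum, with Benjamini-Hochberg adjustment, and were tested on simulated data. Intervals cover counting error only, since molecules of 1 library are no replicates of a culture. The fragments, settings and lists were chosen with earlier results of these data known. Named fragments are, per comparison and direction, the 5 called with the widest difference, of which some are given, and the 3 with the widest difference at 1 CpG among those not called as a whole. Also named are the 5 deepest, those highest in all libraries, those called higher in both clones and 3 on either side of the 20% limit. Thinning drew 10 molecules per library at random with a fixed seed.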

Additional observations from a re-analysis of the deposited data

Results flagged for a closer look

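Some of the fragments named above differed between the clones themselves as well as in 1 clone against the population. They come from lists picked for the widest differences. Of all 11976 fragments, 24 were called between the clones and also against the population in at least 1 clone. The difference between the clones was tested directly, by Fisher's exact test (adjusted after Benjamini and Hochberg), and each value compares these libraries only. Fragment 291195 had 0 of 42 methylated molecules in clone 1 and 24 of 34 in clone 2, with 15 of 19 in the population (adjusted p 2.81e-09 between the clones, Fisher's exact test). Fragment 902458 had 2 of 28 methylated molecules in clone 1 and 14 of 17 in clone 2, with 1 of 12 in the population (adjusted p 5.52e-05 between the clones, Fisher's exact test). Fragment 1147768 had 45 of 48 methylated molecules in clone 1 and 0 of 22 in clone 2, with 0 of 9 in the population (adjusted p 5.73e-12 between the clones, Fisher's exact test). Fragment 1321933 had 1 of 17 methylated molecules in clone 1 and 18 of 22 in clone 2, with 1 of 12 in the population (adjusted p 0.000221 between the clones, Fisher's exact test). Fragment 1470054 had 24 of 28 methylated molecules in clone 1 and 0 of 13 in clone 2, with 3 of 14 in the population (adjusted p 2.25e-05 between the clones, Fisher's exact test). Fragment 1503267 had 0 of 32 methylated molecules in clone 1 and 19 of 21 in clone 2, with 1 of 8 in the population (adjusted p 1.55e-09 between the clones, Fisher's exact test).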

How the results depend on the processing

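The means and the shares of methylated molecules moved with most settings. Under the settings tried for the mean, that of clone 1 lay 1.36 to 2.33 points above the population. The mean of clone 2 lay 1.92 to 2.95 points above it. Each setting still chose the fragments as low in the same population library, so the direction is no result here either. With the limit at 10% on the odd lines, the mean level (%) was 4.49 in clone 1, 5.06 in clone 2 and 3.13 in the population. With odd and even lines exchanged, the mean level (%) was 7.09 in clone 1, 7.85 in clone 2 and 5.02 in the population. With molecules of 2 or more reads, the mean level (%) was 8.65 in clone 1, 9.28 in clone 2 and 6.32 in the population. With the plus strand, the mean level (%) was 7.58 in clone 1, 8.36 in clone 2 and 5.46 in the population. With the minus strand, the mean level (%) was 7.21 in clone 1, 8.09 in clone 2 and 5.31 in the population. With the first and last CpG left out, the mean level (%) was 6.92 in clone 1, 7.63 in clone 2 and 4.83 in the population. With molecules with 3 or more calls, the mean level (%) was 6.66 in clone 1, 7.31 in clone 2 and 4.82 in the population. With all calls pooled, the mean level (%) was 6.73 in clone 1, 7.26 in clone 2 and 4.65 in the population. With the coverage minimum doubled, the share of methylated molecules (%) was 2.58 in clone 1, 2.97 in clone 2 and 1.24 in the population. With the limit at 10% on the odd lines, the share of methylated molecules (%) was 1.36 in clone 1, 1.57 in clone 2 and 0.516 in the population. With odd and even lines exchanged, the share of methylated molecules (%) was 2.87 in clone 1, 3.31 in clone 2 and 1.34 in the population. With molecules of 2 or more reads, the share of methylated molecules (%) was 3.55 in clone 1, 4.2 in clone 2 and 2.11 in the population. With the plus strand, the share of methylated molecules (%) was 3.19 in clone 1, 3.88 in clone 2 and 1.53 in the population. With the minus strand, the share of methylated molecules (%) was 2.72 in clone 1, 3.22 in clone 2 and 1.46 in the population. With the first and last CpG left out, the share of methylated molecules (%) was 3.23 in clone 1, 3.52 in clone 2 and 1.55 in the population. With molecules with 3 or more calls, the share of methylated molecules (%) was 2.53 in clone 1, 2.77 in clone 2 and 1.15 in the population. With strands listing over 25 molecules left out, the share of methylated molecules (%) was 2.69 in clone 1, 2.91 in clone 2 and 1.28 in the population. Called fragments with the coverage minimum doubled numbered 24 in clone 1 and 18 in clone 2 against the population, and 105 between the clones. Called fragments with the limit at 10% on the odd lines numbered 9 in clone 1 and 6 in clone 2 against the population, and 62 between the clones. Called fragments with molecules of 2 or more reads numbered 1 in clone 1 and 1 in clone 2 against the population, and 1 between the clones. Called fragments with the plus strand numbered 1 in clone 1 and 2 in clone 2 against the population, and 41 between the clones. Called fragments with the minus strand numbered 1 in clone 1 and 1 in clone 2 against the population, and 33 between the clones. Called fragments with the first and last CpG left out numbered 47 in clone 1 and 42 in clone 2 against the population, and 248 between the clones. Called fragments with methylated molecules defined by 80% or more numbered 10 in clone 1 and 4 in clone 2 against the population, and 75 between the clones. Called fragments with Benjamini-Yekutieli adjustment numbered 8 in clone 1 and 4 in clone 2 against the population, and 83 between the clones. Called CpGs between the clones numbered 1426 with 20 molecules in each clone and 10 in the population. On settings chosen after seeing the data they numbered 131 with molecules of 2 or more reads, 775 on the plus strand and 747 on the minus strand, and against the population 2 in clone 1 and 7 in clone 2 with molecules of 2 or more reads. The settings on coverage, reads and strands leave fewer molecules, fragments or CpGs, and for the others the cause was not tested. No paired analysis was possible because the 2 replicates of each clone share 1 table, and for the same reason no replicate was left out in turn. With 1 library per group, depth limits the population most, at a median of 10.5 molecules per fragment.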
